A study of Mus musculus with 6 samples.

Results

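The miR-99, miR-100 and miR-125 miRNAs are the 5 guide strands whose hairpin genes lie beside let-7 genes in the mouse genome, and they were taken by name from the deposited table: mmu-miR-99a-5p, mmu-miR-99b-5p, mmu-miR-100-5p, mmu-miR-125a-5p and mmu-miR-125b-5p. All 5 were listed, among 718 entries in all. They were measured by small RNA sequencing in small extracellular vesicles (sEVs), the membrane-bound particles that cells release, from cultured pancreatic islets. The islets came from wild-type mice of the C57/B6J strain. Those fed a normal chow diet (NCD) gave normal islet-derived sEVs (nid-sEVs, n = 3 libraries), and those fed a high-fat diet (HFD) gave adaptive islet-derived sEVs (aid-sEVs, n = 3 libraries). Both groups shared the strain, the genotype and a culture without serum. In the study, the HFD-fed mice stand for the phase of obesity in which islets still compensate. An islet holds endocrine, vascular and stromal cells, so the sEVs of any of them could be in a library. The age and sex of these mice and the pooling of islets are not stated by the labels, which also do not say whether the 3 libraries of a group came from separate mice. The p-values therefore measure the spread between libraries, which may be technical.

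MiRNAs are short RNAs that guide Argonaute proteins to matching messenger RNAs, mainly through bases 2 to 8, the seed. The let-7 miRNAs rise as cells differentiate and repress growth-promoting genes, and the miR-99/100 and miR-125 miRNAs are made from the same loci. MiR-99a and miR-100 are known to repress mTOR, a growth kinase, and the miR-125 miRNAs are relatives of worm lin-4, the first miRNA described. Each of the 3 loci carries a miR-99 or miR-100 gene, a let-7 gene and a miR-125 gene.

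The mature sequences divide the 5 miRNAs by seed into 2 families that do not share targets through the seed, and neither seed is that of let-7. The let-7a sequence is that of the hairpin gene Mirlet7a-1 on chromosome 13, since the chromosome 9 gene Mirlet7a-2 had no 5p entry in the reference. All are shown from RefSeq (GRCm38.p6), in which all 5 members and the 3 let-7 partners had an entry by name, with the seed in capitals.
mmu-miR-99a-5p: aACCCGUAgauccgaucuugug
mmu-miR-100-5p: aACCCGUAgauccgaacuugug
mmu-miR-99b-5p: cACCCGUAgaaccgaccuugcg
mmu-miR-125a-5p: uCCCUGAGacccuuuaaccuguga
mmu-miR-125b-5p: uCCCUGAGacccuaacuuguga
mmu-let-7c-5p: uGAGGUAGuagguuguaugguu
mmu-let-7a-5p: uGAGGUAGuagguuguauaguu
mmu-let-7e-5p: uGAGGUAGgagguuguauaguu
Counted from 1 at the 5′ end, miR-100 differed from miR-99a by U16A alone. MiR-99b differed from miR-99a by A1C, U11A, U16C and U21C. MiR-125b, of 22 bases, shared its first 13 bases with miR-125a, of 24 bases. Let-7c differed from let-7a by A19G, and let-7e from let-7a by U9G. Reads of miR-99a and miR-100, and of let-7a and let-7c, can therefore be told apart at 1 base only, and how the counting treated mismatches is not given in the sources used here. Their separate values are uncertain to that extent.

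The loci lie on 3 chromosomes (GRCm38, plus strand). On chromosome 16, Mir99a (77598936 to 77599000) lay 656 bases before Mirlet7c-1 (77599657 to 77599750), and Mir125b-2 (77646273 to 77646343) followed after 46522 bases. All 3 were intronic in the noncoding host gene Mir99ahg. On chromosome 9, Mir100 (41531425 to 41531504) lay 5211 bases before Mirlet7a-2 (41536716 to 41536811), and Mir125b-1 (41581926 to 41582002) followed after 45114 bases. These 3 were intronic in the noncoding gene 3110039I08Rik, and Mir125b-1 also overlapped an exon of Gm28119. The locus on chromosome 17 was the tightest, with Mir99b (17830188 to 17830257), Mirlet7e (17830352 to 17830444) and Mir125a (17830812 to 17830879) separated by 94 and 367 bases. Mir99b and Mirlet7e were intronic in Spaca6, a protein-coding gene, and Mir125a overlapped one of its exons. MiR-125b-5p is thus made from both the chromosome 9 and the chromosome 16 locus. Let-7a has a further hairpin gene on chromosome 13 and let-7c one on chromosome 15, outside these loci, so that their reads cannot be assigned to one locus.

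Values are in RPM, the reads of a miRNA scaled to a common library total. The totals, recovered from the RPM, were 50534 to 129152 reads in the 3 nid-sEV libraries and 122266 to 519315 in the 3 aid-sEV libraries. Listed entries made up 99.75% to 99.96% of them, so these totals need not be all the reads sequenced. The least that 3 reads can show ran from 5.78 to 59.4 RPM, far under the level of every member. The first nid-sEV library stood apart, with 33.4% of its reads in entries without a miRBase name against 6.61% to 9.45% in the other 5 libraries. For some results, but not all, the value without it is also given. The most abundant islet miRNA, miR-375-3p, ranged from 56584 to 346480 RPM in nid-sEVs and from 136424 to 163590 RPM in aid-sEVs. Fewer vesicles from a cell type and less of a miRNA per vesicle cannot be told apart in such libraries.

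None of the 5 miRNAs was called in aid-sEVs against nid-sEVs, miR-100 was lower in every aid-sEV library by a ratio of means of 3.14, miR-125b was so by a narrow margin, and the other 3 overlapped between the groups. A call needed an adjusted p under 0.05 (limma on log2(RPM + 1), with Benjamini-Hochberg adjustment over all 718 entries) together with a log2 fold change beyond 1 in either direction. Of all entries, 15.6% were called higher and 1.81% lower in aid-sEVs. Of the 219 entries detected in all 6 libraries, as the members were, 22 were called higher and 9 lower. At an unadjusted limma p under 0.05, 1 of the 5 members (miR-100), 69 of these 219 entries and 200 of the 718 entries passed. On the recovered reads, edgeR's filtered quasi-likelihood test and DESeq2 each called miR-100 lower and no other member. These tests called more entries lower than limma did, at 8.57% of the 245 entries that passed edgeR's filter and 11.5% of the 436 to which DESeq2 gave an adjusted p.

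Together the 5 miRNAs took 4.83%, 6.24% and 5.44% of the reads in nid-sEVs and 3.99%, 4.02% and 4.47% in aid-sEVs. Every aid-sEV library was below every nid-sEV library, with mean sums of 55023 ± 7103 and 41600 ± 2650 RPM (SD, n = 3 each). The order depended on scaling, since the log2 difference of the sum was 0.10 in favour of aid-sEVs when RPM were divided by TMM factors, which shift the median of the 219 entries detected in all 6 libraries from -0.21 to 0.29 on the log2 scale. The 3 members of the miR-99/100 seed family summed to 42038 ± 5373 RPM in nid-sEVs and 30568 ± 3702 RPM in aid-sEVs (SD, n = 3 each), again without overlap and with a log2 difference of 0.04 under TMM factors. The miR-125 pair summed to 12985 ± 4916 and 11032 ± 1335 RPM (SD, n = 3 each), with overlap.

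**Figure D1:**
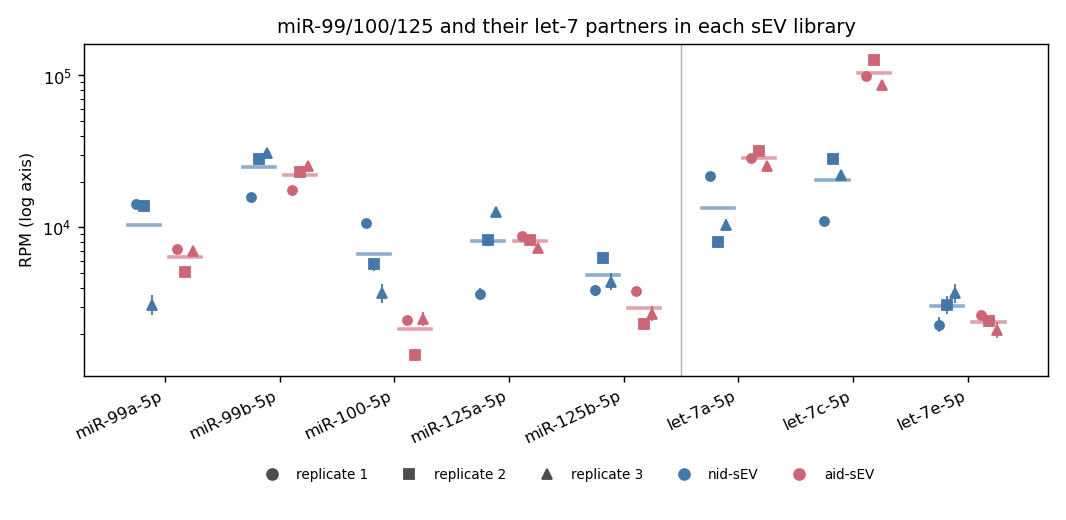
Level of each member and of its let-7 partners in each library, in RPM on a log axis. Points are libraries (blue nid-sEV, red aid-sEV, the shape giving the replicate) with 95% Wilson intervals of counting error, and bars are group means (n = 3 each). The aid-sEV points lie below all nid-sEV points for miR-100-5p and, narrowly, miR-125b-5p, and above them for let-7a-5p and let-7c-5p.

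Among the miR-99/100 family, miR-100 held the widest gap between the groups. Its levels were 10685, 5710 and 3681 RPM in nid-sEVs and 2453, 1445 and 2495 RPM in aid-sEVs. The groups did not overlap, and the nearest libraries, the third of each group, had Wilson intervals of 3189 to 4248 and 2230 to 2790 RPM, which were apart (95%, counting error only). The means were 6692 ± 3604 and 2131 ± 594 RPM (SD, n = 3 each), and the limma log2 fold change was -1.56 with an SE of 0.50 (95% interval -2.77 to -0.34, adjusted p = 0.090). MiR-100 ranked 23, 32 and 32 by level within the nid-sEV libraries and 52, 66 and 51 within the aid-sEV libraries, a ranking that does not depend on scaling. Without the first nid-sEV library, which had its highest level, the log2 fold change was -1.15 (limma adjusted p = 0.12), and without the third it was -1.92 (limma adjusted p = 0.054).

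MiR-99a, which differs from miR-100 by a single base, did not separate the groups. Its levels were 14332, 13903 and 3087 RPM in nid-sEVs and 7219, 5085 and 6977 RPM in aid-sEVs. The first 2 nid-sEV libraries were above every aid-sEV library and the third was below every one. The coefficient of variation was 61.0% in nid-sEVs and 18.2% in aid-sEVs, and the log2 fold change was -0.42 with an SE of 0.65 (limma adjusted p = 0.72). Its size rested on the third nid-sEV library, without which it was -1.15 (limma adjusted p = 0.063), and on the first 2, without which it was -0.05 and -0.07. The sum of miR-99a and miR-100, in which reads exchanged between them would cancel, overlapped between the groups. It was at 25017, 19613 and 6768 RPM in nid-sEVs and 9672, 6530 and 9471 RPM in aid-sEVs. MiR-99a was the larger part of it in every library except the third of the nid-sEVs. The sum therefore mainly follows miR-99a and does not show whether reads were exchanged.

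MiR-99b, from the chromosome 17 locus, was the most abundant member in every library, with 32.6% to 57.6% of the members' reads. Its levels were 15741, 28323 and 30653 RPM in nid-sEVs and 17729, 23135 and 25166 RPM in aid-sEVs. The groups overlapped throughout, at means of 24906 ± 8022 and 22010 ± 3844 RPM (SD, n = 3 each). The log2 fold change was -0.13 with an SE of 0.34 (95% interval -0.97 to 0.70, limma adjusted p = 0.83). That interval lay inside the 1 log2 unit that a call needed, but for RPM scaling only. Under TMM factors the log2 fold change was 0.36.

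Of the miR-125 pair, miR-125a overlapped between the groups and miR-125b was lower in every aid-sEV library by a narrow margin. MiR-125a was at 3647, 8208 and 12586 RPM in nid-sEVs and 8746, 8227 and 7312 RPM in aid-sEVs. Its means were 8147 ± 4470 and 8095 ± 726 RPM (SD, n = 3 each), and the aid-sEV libraries lay inside the nid-sEV range. The log2 fold change was 0.16 with an SE of 0.49 (95% interval -1.03 to 1.35, limma adjusted p = 0.86), and it was -0.33 without the first nid-sEV library, which was its lowest.

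MiR-125b was at 3848, 6274 and 4393 RPM in nid-sEVs and 3799, 2305 and 2707 RPM in aid-sEVs. The first library of each group nearly met, with Wilson intervals of 3525 to 4201 and 3636 to 3970 RPM that overlapped, so that this separation was not detectable at this depth. The means were 4838 ± 1273 and 2937 ± 773 RPM (SD, n = 3 each), a ratio of 1.65. The log2 fold change was -0.72 with an SE of 0.37 (95% interval -1.61 to 0.17, limma adjusted p = 0.24).

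Of the 5 members, 2 thus had every aid-sEV value under all 3 nid-sEV values, and none had every aid-sEV value above them. Over the 219 entries detected in all 6 libraries, as the members were, 20.1% were lower in every aid-sEV library and 20.5% higher. Over all 718 entries, 7.52% were lower in every aid-sEV library. With so few members, 2 of 5 cannot be set apart from this background. Without the first nid-sEV library miR-99b joined them, making 3 of 5 against 31.5% of the detected entries. Without the third, miR-99a did, making 3 of 5 against 32.9%. The median log2 fold change was -0.42 over the members, -0.21 over the detected entries and 1.11 over all entries, of which 229 to 417 were at 0 in a nid-sEV library and 89 to 159 in an aid-sEV library.

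**Figure D2:**
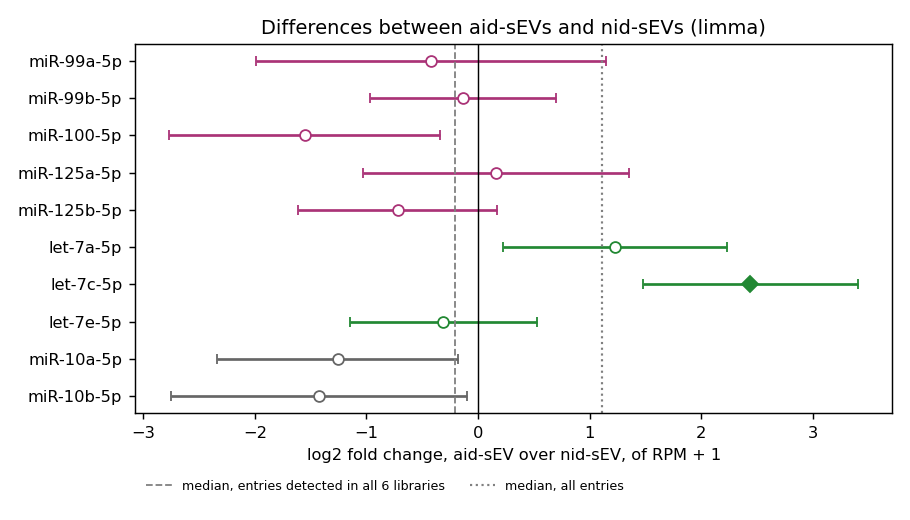
Limma log2 fold changes (aid-sEV over nid-sEV, of RPM + 1) of the members, the let-7 partners and the miR-10 relatives, with 95% intervals over 6 libraries. The filled diamond, let-7c-5p, is the single called entry, and the dashed and dotted lines are the medians of the 219 entries detected in all libraries (-0.21) and of all 718 entries (1.11).

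The mix of the members also differed between libraries. MiR-99b took the largest share in all 6 libraries. MiR-99a came next in the first and second nid-sEV libraries, with 29.7% and 22.3%, but took 5.67% in the third, where miR-125a took 23.1%. In aid-sEVs the second place was held by miR-125a in all 3 libraries, with 21.9%, 20.5% and 16.4%, ahead of miR-99a with 18.1%, 12.6% and 15.6%. MiR-100 took 22.1%, 9.15% and 6.77% of the members' reads in nid-sEVs and 6.14%, 3.59% and 5.59% in aid-sEVs. These did not overlap, but the margin was narrow. The nearest were 6.77% in the third nid-sEV library, which rests on 186 reads, and 6.14% in the first aid-sEV library. The counting error of the shares was not computed, so this separation is not shown to exceed it. MiR-125b took 5.73% to 10.1% over the 6 libraries. These shares do not depend on the library total.

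**Figure D3:**
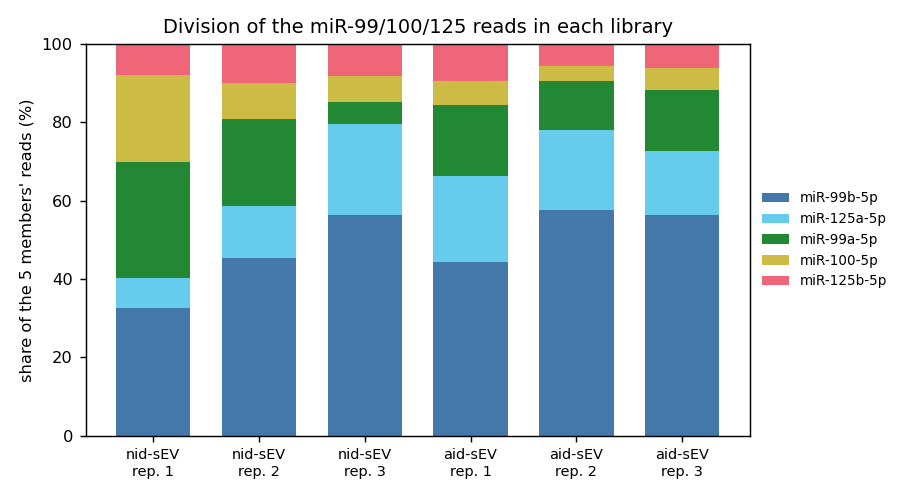
Share of the 5 members' reads taken by each member in each library (stacked to 100%). MiR-99b-5p is the largest segment in every bar, from 32.6% to 57.6%. The miR-100-5p segment is smaller in each aid-sEV bar than in each nid-sEV bar, narrowly so for the nearest bars.

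The let-7 partners, which share loci with the members, did not all differ alike. Let-7c was at 10972, 28216 and 21985 RPM in nid-sEVs and 98730, 127150 and 86753 RPM in aid-sEVs, and it rose in aid-sEVs with a log2 fold change of 2.44 and an SE of 0.40 (limma adjusted p = 0.016). Let-7a was at 21742, 7994 and 10389 RPM in nid-sEVs and 28509, 31745 and 25502 RPM in aid-sEVs. It was higher in every aid-sEV library but was not called, at a log2 fold change of 1.23 with an SE of 0.41 (limma adjusted p = 0.10). Let-7e was at 2292, 3076 and 3681 RPM in nid-sEVs and 2661, 2416 and 2118 RPM in aid-sEVs, with overlap and a log2 fold change of -0.31 (limma adjusted p = 0.59). The summed partners stood at 36782 ± 2232 RPM in nid-sEVs, below the summed members, and at 135195 ± 23913 RPM in aid-sEVs, above them (SD, n = 3 each).

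Ratios within a library, which do not depend on its total, were compared for each member and the let-7 miRNA of its locus. For 3 against 3 libraries the smallest p of the two-sided exact permutation test is 0.10, so none of the 7 ratios compared could pass 0.05. For chromosome 16, miR-99a to let-7c was 1.31, 0.493 and 0.140 in nid-sEVs and 0.0731, 0.0400 and 0.0804 in aid-sEVs. Each aid-sEV ratio was below each nid-sEV ratio, and the mean log2 ratios were -1.16 ± 1.61 and -4.02 ± 0.55 (SD, n = 3 each), which is 7.27-fold lower in aid-sEVs (exact permutation p = 0.10, 0.175 after adjustment over the 7). The log2 difference of -2.86 was -2.09 without the first nid-sEV library and -3.70 without the third. MiR-125b to let-7c was 0.351, 0.222 and 0.200 in nid-sEVs and 0.0385, 0.0181 and 0.0312 in aid-sEVs, 8.94-fold lower without overlap (exact permutation p = 0.10, adjusted 0.175).

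For chromosome 9, miR-100 to let-7a was 0.491, 0.714 and 0.354 in nid-sEVs and 0.0861, 0.0455 and 0.0978 in aid-sEVs, 6.87-fold lower without overlap (exact permutation p = 0.10, adjusted 0.175). MiR-125b to let-7a was 0.177, 0.785 and 0.423 in nid-sEVs and 0.133, 0.0726 and 0.106 in aid-sEVs, 3.85-fold lower, also without overlap (exact permutation p = 0.10, adjusted 0.175). These 4 ratios share let-7c, let-7a and miR-125b and are not independent, and each sets a member that was not called against a let-7 miRNA that was higher in every aid-sEV library.

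For chromosome 17 the groups overlapped in all 3 ratios. MiR-99b to let-7e was 6.87, 9.21 and 8.33 in nid-sEVs and 6.66, 9.58 and 11.9 in aid-sEVs, with 1 aid-sEV library below and 2 above every nid-sEV library (log2 difference 0.17, exact permutation p = 0.50). MiR-125a to let-7e was 1.59, 2.67 and 3.42 in nid-sEVs and 3.29, 3.41 and 3.45 in aid-sEVs (log2 difference 0.47, exact permutation p = 0.30). MiR-99b to miR-125a, the 2 members of this locus, was 4.32, 3.45 and 2.44 in nid-sEVs and 2.03, 2.81 and 3.44 in aid-sEVs (log2 difference -0.30, exact permutation p = 0.40). Whether the ratios of chromosome 17 and those of the other loci differ from each other was not tested.

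**Figure D4:**
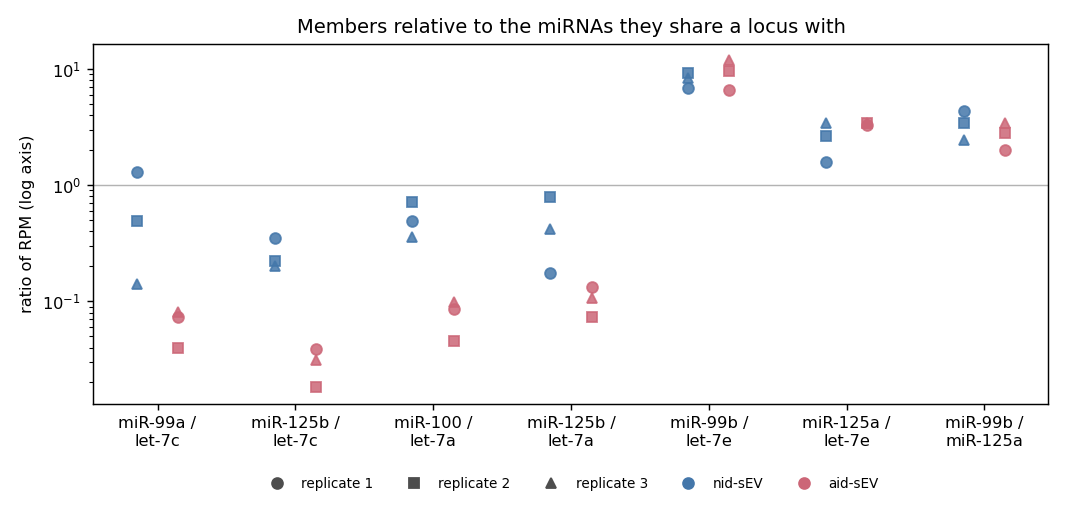
Ratio of each member to the let-7 miRNA of its locus, and of miR-99b to miR-125a, in each library on a log axis. Shapes give the replicate (n = 3 each), and the aid-sEV points lie below all nid-sEV points in the 4 ratios to let-7c and let-7a while the groups overlap in the 3 ratios of the chromosome 17 locus.

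Across the 6 libraries the members followed different courses. As a description, each profile was taken as log2(RPM + 1) minus its own mean, and likeness as the root-mean-square difference over the 6 libraries. Among members the closest were miR-99b and miR-125a, which share the chromosome 17 locus, at 0.36. The farthest apart were miR-100 and miR-125a, at 1.33, and miR-99a and miR-125a stood at 1.23. MiR-99a and miR-100, with 1 base between them, stood at 0.73.

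Of 173 other named entries detected in all libraries, those most like miR-99a were miR-30a-5p (0.27), miR-27a-3p (0.28) and miR-143-3p (0.33). Those most like miR-125a were miR-129-5p (0.23), miR-375-3p (0.25) and miR-3099-3p (0.33), and those most like miR-99b were miR-485-5p (0.23), miR-666-5p (0.27) and miR-127-3p (0.27). MiR-100 was nearest to miR-540-5p (0.24), miR-200b-3p (0.35) and miR-126a-5p (0.35). MiR-125b was nearest to miR-22-3p (0.13), miR-92a-3p (0.16) and miR-27b-3p (0.23). The libraries are shared by all these profiles, so that any feature of a library enters all of them.

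**Figure D5:**
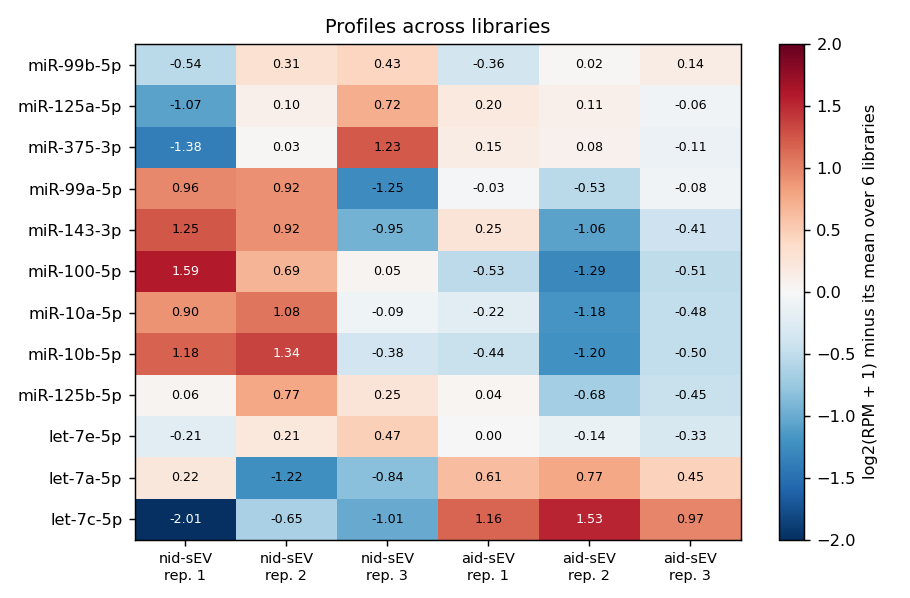
Course of each named miRNA over the 6 libraries, as log2(RPM + 1) minus its mean over the libraries (blue below, red above). MiR-99b-5p and miR-125a-5p are lowest in the first nid-sEV library and highest in the third, as miR-375-3p is, while miR-99a-5p and miR-143-3p are lowest in the third nid-sEV library or the second aid-sEV library.

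Markers of islet cells and of other cell types also varied between the libraries. MiR-143-3p is a miRNA of smooth muscle and stromal cells. It was at 19411, 15456 and 4235 RPM in nid-sEVs and 9715, 3904 and 6151 RPM in aid-sEVs. Like miR-99a, it was high in the first 2 nid-sEV libraries. The mesenchymal list, with 8 of 9 miRNAs listed, summed to 5937 to 26728 RPM in nid-sEVs and 4622 to 12116 RPM in aid-sEVs. MiR-143-3p made up most of this sum, miR-214-3p was at 0 in 3 libraries and none of the 8 was called. The list did not follow a single course in nid-sEVs. MiR-145a-3p (418, 700 and 98.9 RPM) was also high in the first 2 libraries. MiR-199a-5p (3879, 1112 and 732 RPM) was highest in the first, and miR-145a-5p (387, 381 and 396 RPM) was level. MiR-199a-3p alone of the list had a log2 fold change above 0 (1.79, not called). The endothelial pair, miR-126a-3p and miR-126a-5p, summed to 989 to 3717 and 679 to 1325 RPM, with no member at 0 and none called. The blood and liver list summed to 4670 to 14502 RPM in nid-sEVs and 752 to 1579 RPM in aid-sEVs, with 2 of 6 called lower and miR-144-5p at 0 in 4 libraries. The leukocyte list summed to 152 to 435 and 24.5 to 38.5 RPM, with 1 of 5 called lower and miR-142a-3p at 0 in 4 libraries. The acinar list summed to 2533 to 9059 and 698 to 3416 RPM, with none of 4 called. Its miR-217-5p (6504, 5299 and 2276 RPM in nid-sEVs) was likewise high in the first 2 nid-sEV libraries. MiR-216a-5p was highest in the first, miR-216b-5p in the second, and miR-216a-3p was at 0 in 3 libraries. The endocrine list summed to 74718 to 360886 and 164821 to 186134 RPM, with 1 of 4 called, miR-7b-5p, which rose. Over all 718 entries, 15.6% were called higher and 1.81% lower. The part of these cell types in the levels of miR-100, miR-125b and miR-99a was not tested.

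Of the opposite strands of the same hairpins, 5 of 9 were listed and none was called. MiR-99b-3p was counted in every library, at 11, 6 and 7 reads in the nid-sEV libraries, against 30, 12 and 4 in those of aid-sEVs. In RPM it was lower in every aid-sEV library, at 85.2, 91.4 and 139 against 57.8, 34.1 and 32.7, where its guide strand overlapped (log2 fold change -1.33, limma adjusted p = 0.22). The Wilson intervals of the first library of each group, 47.6 to 153 and 40.5 to 82.5 RPM, overlapped, so that this separation was not detectable at this depth. MiR-125a-3p had 29, 0 and 22 reads in the nid-sEV libraries, against 75, 40 and 11 in those of aid-sEVs, with overlap in RPM. The 2 opposite strands of miR-125b tell its loci apart, since that of Mir125b-1 on chromosome 9 and that of Mir125b-2 on chromosome 16 differ. MiR-125b-1-3p had 13, 9 and 0 reads in the nid-sEV libraries, against 3, 16 and 1 in those of aid-sEVs, and miR-125b-2-3p had 17, 0 and 2 in nid-sEVs and 30, 12 and 2 in aid-sEVs. Both were within a few reads of 0 in several libraries, so no difference between the loci was detectable at this depth.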

How the data were processed

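Small RNA libraries of sEVs from cultured islets (n = 3 for each group) were grouped by the diet in their labels. The authors deposited 1 table of 718 entries with the RPM of each library, relative to its total. The submitters' processing notes name fastp 0.23.0, HISAT2 2.2.1 and GRCm38. The counter and annotation are not given in the sources used here. The deposited table also holds the authors' own comparison (log2 fold change, p-value and false discovery rate), which was not used. RPM divided by the smallest value above 0 gave whole reads for 100% of values, within 0.01 read. Members and lists were chosen with earlier results of these data known. Log2(RPM + 1) was tested with limma 3.58.1 (eBayes with trend, R 4.3.3) with the group as the only term, with Benjamini-Hochberg adjustment over 718 entries. Fold changes of low entries on this scale depend on the pseudocount and on library depth, and they can be too large as well as too small. The median over all 718 entries, 1.11, was 1.78 with pseudocount 0.1 and 0.39 with pseudocount 10. In reads thinned to the smallest library it was 0.49. Ratios were tested by exact two-sided permutation over libraries. Alternatives were edgeR 4.0.16 and DESeq2 1.42.0 on the recovered reads, other pseudocounts, filters and scalings, thinning, a replicate block and each library left out. That last one, for the count of members lower in every aid-sEV library, was chosen after seeing the data. Intervals are Wilson intervals at 95%. Named miRNAs were the members, the let-7, miR-10 and opposite-strand lists, miRNAs sharing a member's seed, miR-375-3p, marker lists and the 3 nearest profiles to each member. The limma step was tested on simulated data.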

Additional observations from a re-analysis of the deposited data

How the results depend on the processing

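Over 18 alternatives miR-100 (log2 fold change -1.92 to -1.06) and miR-125b (-0.92 to -0.18) stayed lower in aid-sEVs. The replicate block and the filters by mean RPM and by detection in all libraries cannot change these limma estimates, only their p-values. Past the threshold were edgeR's filtered quasi-likelihood test (miR-100 -1.83, adjusted p = 0.047) and DESeq2 (-1.63, adjusted p = 0.030), over an adjusted p range of 0.030 to 0.27. TMM factors turned miR-99a (0.077) and miR-99b (0.36), the summed members (0.10), the miR-99/100 family (0.039) and the miR-125 pair (0.34). MiR-99b also turned when centred on detected entries (0.039) and in the unfiltered quasi-likelihood test (0.30), and miR-125a in named entries only (-0.014) and the filtered test (-0.23). The sum was -0.57 in named entries only. Leaving out 1 library in turn gave -0.44 to 0.044 for miR-99b and -0.33 to 0.56 for miR-125a, with 33 to 150 entries called higher and 1 to 26 lower. The highest counts were without the first nid-sEV library and the lowest without the second. Entries called higher numbered 62 with pseudocount 10, 69 with a mean of at least 10 RPM, 23 of those detected in all libraries, 58 in thinned reads, and 48, 56 and 65 in the filtered and unfiltered quasi-likelihood tests and DESeq2. Entries called lower numbered 8 with pseudocount 0.1, 3 with TMM factors, 6 in thinned reads, and 21, 7 and 50 in those 3 tests. The labels do not say whether same-numbered libraries were paired. Correlations of their deviations were -0.05, 0.13 and -0.11, against -0.20 to 0.21 for differently numbered ones. With 3 libraries in each group, these cannot show whether a pairing or a shared batch existed. A replicate block gave 0 calls higher and 0 lower (187 entries at an unadjusted p under 0.05 by limma). The log2 fold change of miR-100 is necessarily the same with the block, -1.56, and its limma adjusted p was 0.14. The 7 log2 ratio differences moved by less than 1 pooled SD in their 8 alternatives, but that of miR-99b to let-7e, 0.17, turned to -0.016 without the third aid-sEV library, and that of miR-99a to let-7c, -2.86, ran from -3.70 to -2.09. The cause of each change was not tested.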

Other observations

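The miR-10 miRNAs are relatives of the miR-99/100 family with another seed. Their longest run in common was 11 bases, between miR-100 and miR-10a from base 6 of miR-100, and it was 10 bases for miR-99a with miR-10a and for miR-99b with miR-10b. The other 3 pairs shared runs of 5 bases. MiR-10a-5p was at 15099, 17085 and 7599 RPM in nid-sEVs and 6940, 3571 and 5782 RPM in aid-sEVs, and miR-10b-5p at 12737, 14299 and 4334 RPM and 4142, 2444 and 3991 RPM. Both were lower in every aid-sEV library and neither was called, and the nearest libraries had overlapping Wilson intervals for both. Their log2 fold changes were -1.26 and -1.43 (limma adjusted p = 0.12 and 0.15). MiR-351-5p, the single other listed miRNA with the miR-125 seed, had 10, 24 and 3 reads in the nid-sEV libraries, against 6, 13 and 2 in those of aid-sEVs. Its RPM was lower in every aid-sEV library, with overlapping Wilson intervals for the nearest libraries, at a log2 fold change of -2.57 that was not called (limma adjusted p = 0.14).

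Of the 7 other let-7 miRNAs listed, 3 were called higher in aid-sEVs, against 15.6% of all 718 entries. Among the 219 entries detected in all 6 libraries, as these 7 were, 22 were called higher. Let-7b, let-7d and let-7f had log2 fold changes of 1.41, 1.85 and 1.41 (limma adjusted p = 0.046, 0.035 and 0.023), each higher in every aid-sEV library. The others were let-7g at 0.93, let-7i at -0.03, let-7j at -0.21 and miR-98 at 2.16 (limma adjusted p = 0.065 for the last), of which none was called.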
